A study of Homo sapiens with 6 samples.

Results

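GAS5 and 9 SNHG genes (SNHG1, SNHG3, SNHG5, SNHG6, SNHG7, SNHG8, SNHG12, SNHG15 and SNHG16) are non-coding host genes of small nucleolar RNAs (snoRNAs), which lie in their introns in this annotation, except in SNHG7, where both lie inside an exon block. They were taken by name from the gene count table of a WDR5 silencing experiment, and all 10 were found among its 26334 genes. The rule used no measured value, although the genes were chosen with earlier results of these data known. All 10 passed the filter on low counts. WDR5 is a shared subunit of the complexes that methylate histone H3 at lysine K4. The comparison asked how the RNA of these host genes differed when WDR5 was silenced.

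The cells were MCF10DCIS.com, an established human breast cancer cell line of the MCF10 series that forms ductal carcinoma in situ-like lesions in mice. All cells carried an integrated pRSI vector that expresses a short hairpin RNA from the U6 promoter and TagRFP with a puromycin resistance gene from the UbiC promoter, and all were selected with puromycin. The control group (shLuc, 3 libraries) carried a hairpin against luciferase and the other group (shWDR5, 3 libraries) carried the same vector with a hairpin against WDR5. The study describes a pool of hairpins against WDR5 for tumour growth in this line, and which were used for these libraries is not given in the sources used here. Every library was poly-A selected, made with a kit that does not mark strand, and held between 38218108 and 57640167 counts in genes. Nothing in the labels says that the 3 libraries of a group came from separate cultures, so the p-values below may measure technical spread only. An effect of WDR5 loss cannot be told apart from one of the hairpin itself, and fewer cells with an RNA cannot be told apart from less RNA per cell.

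WDR5 itself was at 52.6, 48.5 and 51.3 CPM (counts on a per-million scale of the library total, TMM-adjusted) in the shLuc libraries and at 23.4, 24.4 and 20.8 CPM in the shWDR5 libraries. Its log2 fold change was −1.15 (SE 0.07, adjusted p = 8.67e-07). Epithelial markers fitted the label, with KRT8 at 2024 ± 76.3 CPM and KRT5 at 820 ± 36.5 CPM in shLuc (SD, n = 3). Of 8 basal markers 7 were higher and EGFR was lower in shWDR5. Of 5 general epithelial markers none was higher and 3 were lower, including CDH1 at −1.03 (adjusted p = 2.64e-07). The summed level of 8 markers of fibroblasts, endothelium and immune cells was 10.8 to 12.3 RPKM (CPM per kilobase of exon) in shLuc and 8.92 to 10.5 in shWDR5. CD3E was at 0 in all 6 libraries, and COL3A1 was at 1 count in shLuc replicate 1 and at 0 in the other 5. Of the 4 tested, 2 were lower in shWDR5. These were COL1A1 (689 to 1122 counts, log2 value −0.50, adjusted p = 0.000438) and PECAM1 (181 to 312 counts, log2 value −0.71, adjusted p = 5.65e-05). CD68 (421 to 599 counts) and PDGFRB (11 to 46 counts) did not pass. The part of these shifts in the results below was not tested.

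A snoRNA guides a chemical change of another RNA, usually ribosomal RNA. Box C/D snoRNAs (SNORD) guide the methylation of ribose and box H/ACA snoRNAs (SNORA) guide the conversion of uridine to pseudouridine. Most human snoRNAs have no promoter of their own. They are trimmed out of an intron after splicing of a host RNA, so that transcription of the host makes the snoRNA, while the fate of the spliced exons is decided separately. In the hosts studied here the spliced exons encode no known large protein. Such exons often hold short reading frames, and translation of these exposes the RNA to nonsense-mediated decay. GAS5 and several SNHG transcripts begin with a tract of pyrimidines (a 5′TOP), as do messages of ribosomal proteins, whose translation depends on mTOR signalling. GAS5 was named for its build-up in growth-arrested cells and is known for lower levels in breast tumours than in normal breast.

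The start of these RNAs is shown first, since the pyrimidine tract is the sequence feature best known to be shared by this class. Each run below, from RefSeq (GRCh38.p14), holds 20 bases before the annotated start and the 30 bases from it, 5′ to 3′ on the strand of the gene, and capitals mark the longest pyrimidine run within 10 bases of the start.
SNHG1 (chr11:62855856-62855905, minus strand): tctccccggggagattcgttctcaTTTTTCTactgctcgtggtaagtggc
SNHG3 (chr1:28505923-28505972, plus strand): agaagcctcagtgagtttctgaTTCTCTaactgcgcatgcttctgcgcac
SNHG5 (chr6:85678704-85678753, minus strand): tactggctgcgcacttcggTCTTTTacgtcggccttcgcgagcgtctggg
SNHG7 (chr9:136728155-136728204, minus strand): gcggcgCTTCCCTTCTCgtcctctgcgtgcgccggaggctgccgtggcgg
SNHG8 (chr4:118278742-118278791, plus strand): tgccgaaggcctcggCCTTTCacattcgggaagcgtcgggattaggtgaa
SNHG12 (chr1:28581844-28581893, minus strand): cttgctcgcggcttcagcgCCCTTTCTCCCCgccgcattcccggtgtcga
SNHG16 (chr17:76557744-76557793, plus strand): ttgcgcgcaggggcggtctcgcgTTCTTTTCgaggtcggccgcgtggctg
The marked runs are 6 to 12 bases long, and that of SNHG7 lies wholly before the annotated start. How often other genes hold a run of this length there was not counted.

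The RefSeq span of GAS5 (5145 bases) is longer than the span in the count table (4087 bases), so its start is given from the GENCODE 29 transcript (GRCh38) that matches all 12 exons of the table in length, with the leading pyrimidines in capitals.
GAS5 (chromosome 1, from 173867987, minus strand): TTTCgaggtaggagtcgactcctgtgaggt
The start of SNHG12 in RefSeq lies 19 bases upstream of the start in the table, measured from SNORA44. SNHG6 and SNHG15 were not in the table of RefSeq promoters used here. Read strictly as a C followed by at least 4 pyrimidines (C or T) from the first base on the strand of the gene, the start matched in 2 of 8 members with a RefSeq window (SNHG5 and SNHG12) and in 4.07% of 35116 promoter windows of all genes. The E-box CACGTG, searched from 250 bases before to 50 after the start and the same on both strands, was found in 1 of 8 members, SNHG7, 122 bases before the start, and in 7.26% of all windows. Both counts of 8 include the RefSeq window of GAS5, which is not printed here, and it held neither motif. In GENCODE 29 the strict 5′TOP form opened 6 of 29 transcripts of GAS5, 4 of 17 of SNHG12, 3 of 23 of SNHG5, 3 of 5 of SNHG6, 2 of 8 of SNHG16, 1 of 25 of SNHG1, 1 of 3 of SNHG3 and 1 of 5 of SNHG8, and none of the 4 transcripts of SNHG7 or the 10 of SNHG15. A match describes these letters only and is no measurement of a transcription start in these cells.

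In shWDR5 cells 8 of the 10 host RNAs changed, 7 of them higher (SNHG7, SNHG8, SNHG12, GAS5, SNHG1, SNHG6 and SNHG5) and 1 lower (SNHG15), at an adjusted p under 0.05 in edgeR's quasi-likelihood test. Across all 16117 genes tested 56.5% passed this threshold, 26.6% higher and 29.9% lower, so a change in either direction was common in this experiment and the 7 of 10 that were higher stand beside the 26.6%. The median log2 fold change of the 10 hosts was 0.33, against −0.01 over all genes tested. Only SNHG7 and SNHG8 also passed an absolute log2 fold change of 0.6 with over 0.5 RPKM, both higher, a rule that 18.4% of tested genes passed in either direction and 7.9% upwards. The CPM of the groups did not overlap for 9 of 10 hosts, SNHG3 being the exception, against 62.3% of all genes tested. SNHG16 and SNHG3 did not pass the test. The 10 host RNAs together made up 717 ± 34.4 CPM in shLuc and 875 ± 40.0 CPM in shWDR5 (SD, n = 3).

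**Figure D1:**
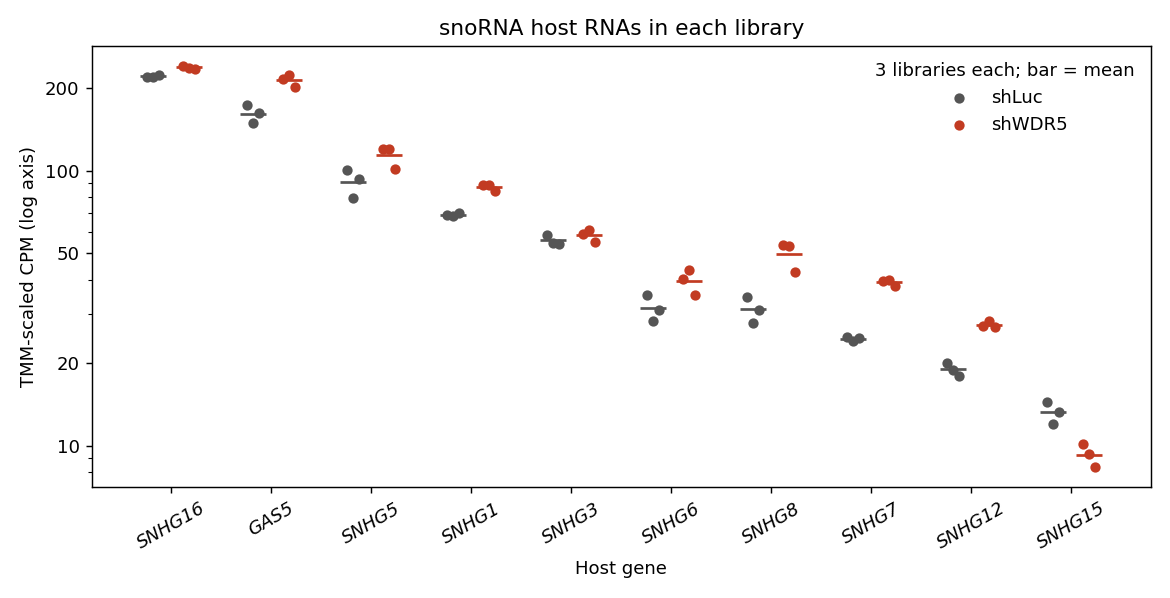
TMM-scaled CPM (log axis) of each host gene in the 3 shLuc (grey) and 3 shWDR5 (red) libraries, with a bar at the mean of each group. The shWDR5 libraries lie above the shLuc libraries for GAS5, SNHG1, SNHG5, SNHG6, SNHG7, SNHG8, SNHG12 and SNHG16, and below them for SNHG15. For SNHG3 the groups overlap.

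**Figure D2:**
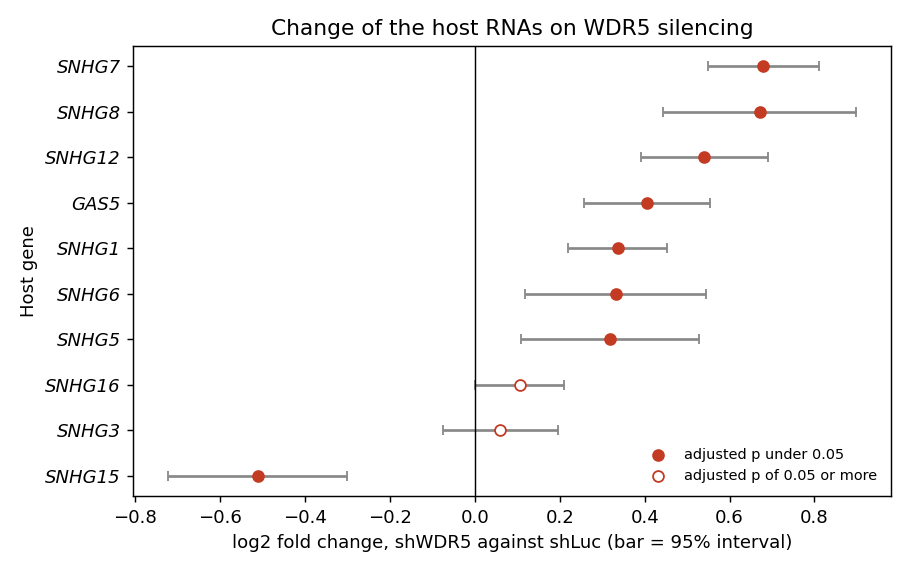
Log2 fold change of each host gene, shWDR5 against shLuc, with an unadjusted 95% interval computed from the edgeR test on 3 against 3 libraries. Filled points have an adjusted p under 0.05, and only SNHG15 lies below 0, at −0.51.

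GAS5 hosts 10 box C/D snoRNAs and had the highest level per kilobase of the 10. In hg19, the build of the count table, it lies on chromosome 1 (chr1:173833039-173837125, minus strand), with 12 exons that fill 15.5% of its span. It was at 173, 148 and 162 CPM in the shLuc libraries and at 216, 223 and 202 CPM in the shWDR5 libraries. All shWDR5 libraries were above all shLuc libraries. The log2 fold change was 0.41 (SE 0.07, 95% interval 0.26 to 0.55, adjusted p = 0.000458), a fold of 1.33. This RNA is also known for a stem that binds the glucocorticoid receptor.

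SNHG1, the host of SNORD22 and of SNORD25 to SNORD31 (8 snoRNAs, chr11:62619460-62623360, minus strand), was at 69.0, 68.4 and 70.2 CPM in shLuc and at 88.7, 88.9 and 84.5 CPM in shWDR5. Its groups did not overlap and its replicates were among the tightest, with a coefficient of variation of 1.34% in shLuc and 2.82% in shWDR5. The log2 fold change was 0.34 (SE 0.05, interval 0.22 to 0.45, adjusted p = 0.000319).

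The other box C/D hosts are SNHG5, SNHG6 and SNHG16. SNHG5, the host of SNORD50A and SNORD50B (chr6:86386725-86388451, minus strand), was at 100, 79.3 and 93.2 CPM in shLuc and at 120, 119 and 101 CPM in shWDR5. The highest shLuc library came within 1 CPM of the lowest shWDR5 library without passing it, and the log2 fold change was 0.32 (SE 0.09, adjusted p = 0.0145). SNHG6, the host of SNORD87 and the shortest of the 10 RNAs with 472 exonic bases, was at 35.2, 28.3 and 31.2 CPM in shLuc and at 40.3, 43.6 and 35.4 CPM in shWDR5. Here too the groups nearly met, and the log2 fold change was 0.33 (SE 0.10, adjusted p = 0.0131). The calls of SNHG5 and SNHG6 were marginal when a library was left out. Without shLuc replicate 2 the log2 fold changes fell to 0.22 (adjusted p = 0.0609) and 0.25 (adjusted p = 0.0680), and without shWDR5 replicate 2 they were 0.28 (adjusted p = 0.0610) and 0.26 (adjusted p = 0.0670). SNHG6 also lost its call without shLuc replicate 3, at 0.32 (adjusted p = 0.0570).

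SNHG16, the host of SNORD1A, SNORD1B and SNORD1C (chr17:74553846-74561430, plus strand), held the most counts of the 10, between 8467 and 13439 a library. It was at 219, 218 and 223 CPM in shLuc and at 240, 236 and 234 CPM in shWDR5. These groups did not overlap, yet the difference was small, with a log2 value of 0.11 (SE 0.05, interval 0.00051 to 0.21) and an adjusted p of 0.0806. It passed the threshold under 4 of 14 other settings, with adjusted p between 0.0270 and 0.0492 and a log2 value of at most 0.14.

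The hosts of box H/ACA snoRNAs held both the largest rises and the fall. SNHG7, whose exons contain SNORA17 and SNORA43 in this annotation (chr9:139619046-139622636, minus strand), was at 24.8, 24.1 and 24.5 CPM in shLuc and at 39.7, 39.9 and 38.1 CPM in shWDR5. The gap between its groups was many times the spread within them. The log2 fold change was 0.68 (SE 0.06, interval 0.55 to 0.81, adjusted p = 5.76e-06), which is higher than that of 90.2% of tested genes.

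SNHG8, the host of SNORA24 (chr4:119199917-119200978, plus strand), was at 34.8, 27.9 and 31.1 CPM in shLuc and at 53.6, 53.0 and 42.9 CPM in shWDR5. Its groups were apart, with wider spread than those of SNHG7 (coefficients of variation of 11.01% and 12.1%). The log2 fold change was 0.67 (SE 0.10, interval 0.44 to 0.90, adjusted p = 0.000278), and without shLuc replicate 2 it was 0.58, which left SNHG7 as the 1 host past 0.6.

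SNHG12 hosts SNORA16A, SNORA44, SNORA61 and the box C/D SNORD99 (chr1:28905050-28908366, minus strand). It was at 20.02, 18.8 and 17.97 CPM in shLuc and at 27.2, 28.3 and 27.1 CPM in shWDR5. With no overlap between the groups, the log2 fold change was 0.54 (SE 0.07, interval 0.39 to 0.69, adjusted p = 6.71e-05).

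SNHG15, the host of SNORA9 (chr7:45022627-45026259, minus strand), was the host that fell. It was at 14.4, 12.0 and 13.3 CPM in shLuc and at 10.1, 9.33 and 8.38 CPM in shWDR5, with every shWDR5 library below every shLuc library. The log2 fold change was −0.51 (SE 0.10, interval −0.72 to −0.30, adjusted p = 0.00102), a fold of 0.70. It is known as a short-lived RNA that is induced by several kinds of stress.

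SNHG3, the host of SNORA73B (chr1:28832455-28837404, plus strand), was at 58.3, 54.8 and 54.2 CPM in shLuc and at 58.6, 60.6 and 55.1 CPM in shWDR5. These groups overlapped, and the log2 value was 0.06 (SE 0.06, interval −0.08 to 0.19, adjusted p = 0.437). A change beyond 0.19 in either direction lay outside its interval.

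Replicates varied in a like order for several of the hosts. In shLuc, replicate 1 was the highest and replicate 2 the lowest for GAS5, SNHG5, SNHG6, SNHG7, SNHG8 and SNHG15, and in shWDR5 replicate 3 was the lowest for all 10 hosts. The coefficient of variation was at most 2.82% in both groups for SNHG1, SNHG7 and SNHG16, whose exons total 1118 to 2676 bases, and 9.56% to 12.1% for SNHG5, SNHG6 and SNHG8, whose exons total 472 to 619 bases. It did not follow exon length throughout. In shLuc and shWDR5 it was 4.03% and 4.76% for SNHG3 (2346 bases) and 5.43% and 2.43% for SNHG12 (739 bases). For GAS5 (632 bases) it was 7.64% and 4.89%, and for SNHG15 (803 bases) 8.97% and 9.51%. Neither the depth nor any other property of the libraries was tested as a source of the order of the replicates.

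Levels between genes were compared per kilobase of exon (RPKM, mean ± SD, n = 3). In shLuc, GAS5 stood highest at 255 ± 19.5 RPKM, followed by SNHG5 at 179 ± 21.1 and SNHG16 at 86.8 ± 1.08. SNHG6 at 66.9 ± 7.26 and SNHG1 at 61.9 ± 0.83 lay close, as did SNHG12 at 25.6 ± 1.39 and SNHG3 at 23.8 ± 0.96. The genes of a pair were measured in the same libraries, and their difference was not tested. SNHG8 lay between these pairs at 50.5 ± 5.56 RPKM. At the low end of the order SNHG15 and SNHG7 changed places. SNHG15 was at 16.5 ± 1.48 RPKM in shLuc and 11.6 ± 1.10 in shWDR5, while SNHG7 was at 9.15 ± 0.13 and 14.7 ± 0.35 RPKM. In shWDR5, SNHG6 (84.2 ± 8.74), SNHG8 (80.5 ± 9.70) and SNHG1 (78.2 ± 2.20) lay close, and SNHG8 had moved up to the level of the others. These levels rest on 1 annotated exon length per gene, and the short RNAs are the ones that depend most on it. Where reads on exon bases shared with another gene were not counted, the level is understated. SNHG6 shares 25.2% of its exon bases, so its place beside SNHG1 and SNHG8 is uncertain. Exons of SNHG7 also hold SNORA17 and SNORA43.

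The spans of the 10 hosts contain 33 annotated snoRNA genes, 25 SNORD and 8 SNORA, that have rows of their own in the table. Mature snoRNAs have no poly-A tail and are 43 to 158 bases long here, so poly-A selected libraries are not a measure of them, and the counts in these rows can come from unspliced host RNA or from carried-over snoRNA, which cannot be told apart. SNORA17 and SNORA43, which lie inside an exon block of SNHG7, were at 0 in every library, and SNORD1B and SNORD50A were too low to test. Of the 29 rows tested 11 passed, 7 higher and 4 lower, against 56.5% of all genes, at 9 to 392 counts a library. Box H/ACA rows passed in 5 of 6 cases (4 higher, 1 lower), and box C/D rows in 6 of 23 (3 higher, 3 lower). Of all genes tested 26.6% were higher and 29.9% lower. Most of these rows come from few hosts. The H/ACA rows SNORA16A, SNORA44 and SNORA61, all higher, belong to SNHG12, while GAS5 holds 10 and SNHG1 8 of the C/D rows. The kind of snoRNA therefore cannot be told apart from the host.

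The snoRNA rows with the largest differences were those of the H/ACA hosts. SNORA44 of SNHG12 had 77, 54 and 65 counts in shLuc and 172, 188 and 128 in shWDR5, a log2 fold change of 1.11 (SE 0.14, adjusted p = 7.00e-05). SNORA24 of SNHG8 had 28, 17 and 15 counts in shLuc and 45, 62 and 41 in shWDR5, a log2 fold change of 1.09 (SE 0.21, adjusted p = 0.00121). Both moved the way of their host exons. SNORA9 of SNHG15 had 69, 24 and 43 counts in shLuc and 22, 25 and 16 in shWDR5, with a log2 fold change of −1.30 (SE 0.30, adjusted p = 0.00360). It fell with its host, and its CPM did not overlap between the groups, although 1 shLuc library (24 counts) and 1 shWDR5 library (25 counts) of different depth held nearly equal counts. The sequences of the 2 that rose are shown with their H box and the trinucleotide 3 bases from the 3′ end in capitals, and SNORD26, a box C/D snoRNA of SNHG1, with its box D in capitals (GENCODE 29, GRCh38).
SNORA44 (chr1:28580381-28580512, minus strand): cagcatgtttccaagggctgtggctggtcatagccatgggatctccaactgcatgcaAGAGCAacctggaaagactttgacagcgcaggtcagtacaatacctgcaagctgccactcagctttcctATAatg
SNORA24 (chr4:118279190-118279320, plus strand): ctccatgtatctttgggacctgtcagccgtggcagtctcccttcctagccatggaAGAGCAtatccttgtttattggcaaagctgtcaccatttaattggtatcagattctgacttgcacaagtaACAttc
SNORD26 (chr11:62855292-62855366, minus strand): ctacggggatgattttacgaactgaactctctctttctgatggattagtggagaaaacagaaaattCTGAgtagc
Both H/ACA snoRNAs hold the 6 letters AGAGCA, which was the string searched for as the H box. The other H/ACA snoRNAs of these hosts were not searched for it.

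In GAS5 and SNHG1 few intronic rows passed the test upwards as the exons did. GAS5 exons rose, while of its 10 snoRNA rows SNORD80 (−0.35, adjusted p = 0.00621) and SNORD75 (−0.57, adjusted p = 0.0459) fell and none passed upwards. SNORD76, with 210 to 392 counts, was at 0.22 (interval 0.02 to 0.42, adjusted p = 0.0619). The intervals of several rows, among them SNORD74 (−0.44 to 0.63) and SNORD47 (−0.43 to 0.61), held the exon value of 0.41. In SNHG1, SNORD26 fell (−0.43, adjusted p = 0.0127), and SNORD31 (0.58, adjusted p = 0.00303) and SNORD22 (0.47, adjusted p = 0.00779) rose. The 6 rows of SNHG1 nearest its start, from SNORD25 at 257 bases to SNORD30 at 2156 bases, had log2 values from −0.43 to −0.03, and the 2 rows farthest from it, SNORD31 at 2495 and SNORD22 at 2853 bases, were the 2 that rose. Across the 8 rows of SNHG1, distance from the start and log2 value had a Spearman rho of 0.857, and across the 10 rows of GAS5 it was −0.09. These are descriptions over rows of the same 6 libraries, which share their host RNA. SNORD1C of SNHG16 (0.98, adjusted p = 0.00669) and SNORA16A (0.55, adjusted p = 0.0231) and SNORA61 (0.58, adjusted p = 0.00518) of SNHG12 were the other rows that passed upwards.

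**Figure D3:**
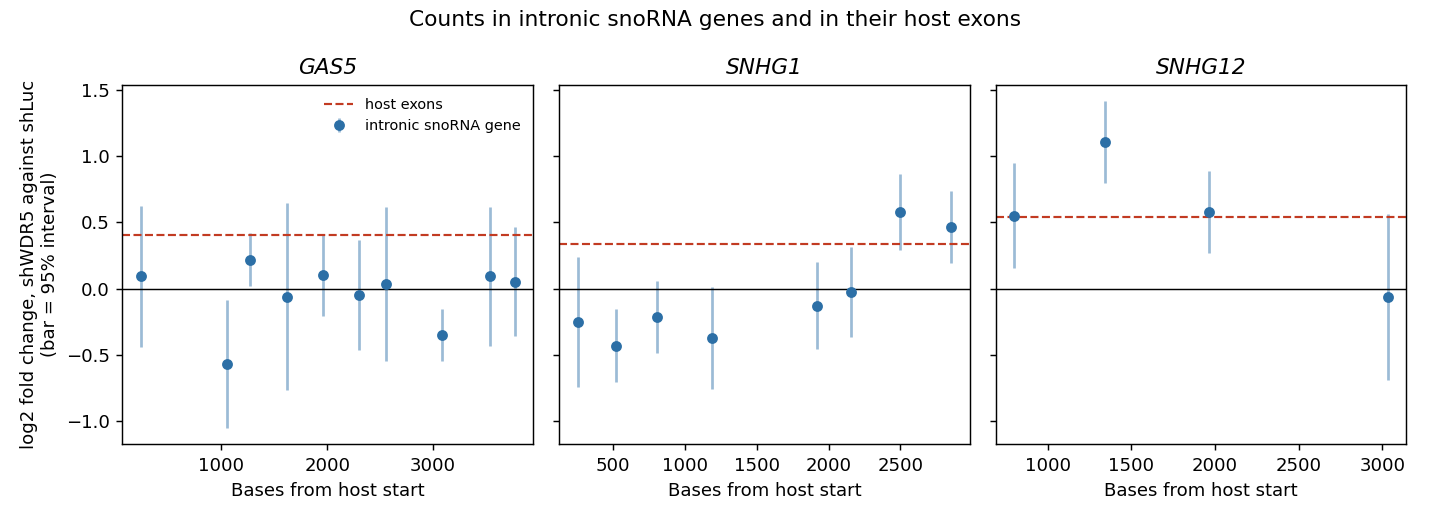
Log2 fold change, shWDR5 against shLuc, of each intronic snoRNA row (blue, with its 95% interval) against its distance in bases from the start of the host, for the 3 hosts with most snoRNAs; the dashed red line is the value of the host exons. The rows of GAS5 lie below its exon value of 0.41, those of SNHG1 are below 0 except the last 2, and those of SNHG12 lie near or above its exon value of 0.54 except SNORD99 at −0.06.

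The density of counts in the snoRNA rows was then set against the density in the exons of the same host and library, which needs no scaling between libraries. In GAS5 the snoRNA density was 13.98%, 18.98% and 18.2% of the exon density in shLuc and 10.98%, 13.2% and 13.9% in shWDR5. In SNHG1 it was 45.2%, 43.3% and 43.0% in shLuc and 34.3%, 35.4% and 35.7% in shWDR5. Both were lower in every shWDR5 library, while the summed CPM of the snoRNA rows hardly differed, at 28.5 ± 2.87 and 28.3 ± 3.12 for GAS5 and 16.8 ± 0.44 and 16.98 ± 0.37 for SNHG1 (SD, n = 3). SNHG15 also had a lower ratio in shWDR5 (46.1% ± 13.9 and 27.4% ± 1.71). SNHG8 (6.92% ± 1.11 and 9.42% ± 0.75) and SNHG16 (3.66% ± 0.12 and 5.26% ± 1.06) had a higher one. SNHG3, SNHG5, SNHG6 and SNHG12 overlapped between the groups. For each of the 5 hosts whose groups did not overlap, the two-sided exact permutation test gave p = 0.1, and 0.18 after Benjamini-Hochberg adjustment over 9 hosts. This is the smallest p that 3 against 3 libraries can give. Groups that do not overlap always give it, so the test adds nothing to the lack of overlap. The ratio has no share over all genes to stand beside, but in CPM 62.3% of all genes tested did not overlap.

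Some host exons share bases with another gene, and reads there may be dropped in counting. Of the listed genes, EIF4A1, with 100% of its exon bases shared, was at 0 in every library. RPL21, with 99.3% shared, held at most 1 count. SNHG3 shares 251 bases, 10.7% of its exons, with RCC1 on the same strand, which encodes the exchange factor of the GTPase Ran and fell by 0.32 on the log2 scale (SE 0.06, adjusted p = 0.000843). SNHG7 shares 125 bases (4.67%) with FAM69B on the other strand, which rose by 1.22 from 35 to 41 counts in shLuc to 81 to 114 in shWDR5, a small number beside the 935 to 2266 counts of SNHG7. SNHG6 shares 119 bases, 25.2% of its exons, with MCMDC2 on the other strand, which held 26 to 56 counts (log2 value −0.25, adjusted p = 0.401). GAS5 shares 41 bases (6.49%) with GAS5-AS1, which held 19 to 40 counts (log2 value −0.04, adjusted p = 0.902), and SNHG12 shares 8 bases with TRNAU1AP (log2 value 0.01, adjusted p = 0.920). Without strand in the libraries, reads of a host and its antisense partner cannot be told apart. Divergent neighbours did not pass the test where their hosts did. ZBTB37, which starts 368 bases from GAS5 in the other direction, had a log2 value of −0.19 (interval −0.47 to 0.09, adjusted p = 0.223), and SLC3A2, which starts 124 bases from SNHG1 and encodes the heavy chain of amino acid transporters, had −0.07 (interval −0.21 to 0.06, adjusted p = 0.336). The difference between host and neighbour was not tested.

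Other non-coding snoRNA hosts were examined next. Of 12 listed, SNHG14 had no row under this name, SNHG18 was at 0 in every library and 10 were tested. Of these, 5 changed, a share near the 56.5% of all tested genes, and all 5 were higher. The 5 of 10 that were higher stand beside 26.6% of all tested genes, and of all calls 47.1% were higher. The median log2 value was 0.29. ZFAS1, the host of SNORD12 family members, was at 54.4, 46.7 and 56.7 CPM in shLuc and 104, 97.3 and 88.7 CPM in shWDR5 (log2 fold change 0.88, SE 0.08, adjusted p = 1.13e-05). SNHG9 rose by 0.99 (adjusted p = 0.00316) at 49 to 234 counts, SNHG4 by 0.57 (adjusted p = 5.43e-05) and EPB41L4A-AS1 by 0.53 (adjusted p = 0.000515). SNHG4 shares 38.9% of its exon bases with MATR3. The fifth was DANCR, with 0.30 (adjusted p = 0.00346).

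Hosts that encode proteins were mixed in direction. Of 14 tested that encode no ribosomal protein 8 changed (56.5% of all tested genes did), 4 higher and 4 lower, with a median of 0.01, and 5 changed when shWDR5 replicate 3 was left out. PPAN, a factor of ribosome assembly, rose by 0.90 (adjusted p = 0.000389) at 59 to 195 counts, with 87.6% of its exon bases shared with the read-through gene PPAN-P2RY11. DKC1, the pseudouridine synthase of box H/ACA particles, was at −0.67 (adjusted p = 1.09e-05), GNB2L1, a scaffold of the small ribosomal subunit, at −0.49 (adjusted p = 7.75e-05) and NOP56, a core protein of box C/D particles, at 0.48 (adjusted p = 3.42e-05). EIF4A1 was at 0 in every library, and all its exon bases are shared with SENP3-EIF4A1. Of 16 tested ribosomal protein hosts 14 changed, 7 higher and 7 lower, with a median of −0.01. The 4 with the largest changes were RPS12 (0.65, adjusted p = 0.000125), RPS3 (−0.54, adjusted p = 0.000146), RPL17 (−0.53, adjusted p = 0.000667) and RPL5 (−0.47, adjusted p = 8.46e-05), and RPL17 shares 54.0% of its exon bases with a read-through gene. RPL21 held at most 1 count a library and shares 99.3% of its exon bases with the row RPL21P28.

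The 8 core proteins of snoRNA particles did not move together. NOP56 rose, as above, and DKC1 and FBL, the methyltransferase of box C/D particles (−0.19, adjusted p = 0.0125), fell. The other 5 did not pass: NOP58 (−0.02), NHP2L1 (0.10), GAR1 (0.06), NHP2 (0.11) and NOP10 (0.12). Of 10 factors of nonsense-mediated decay 4 changed, against 56.5% of all tested genes, and all 4 were higher. The 4 of 10 that were higher stand beside 26.6% of all tested genes, and of all calls 47.1% were higher. These were SMG9 (0.58, adjusted p = 6.15e-05) and the endonuclease SMG6 (0.37, adjusted p = 0.000628), with UPF2 (0.36, adjusted p = 0.000658) and UPF3A (0.34, adjusted p = 0.00151).

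**Figure D4:**
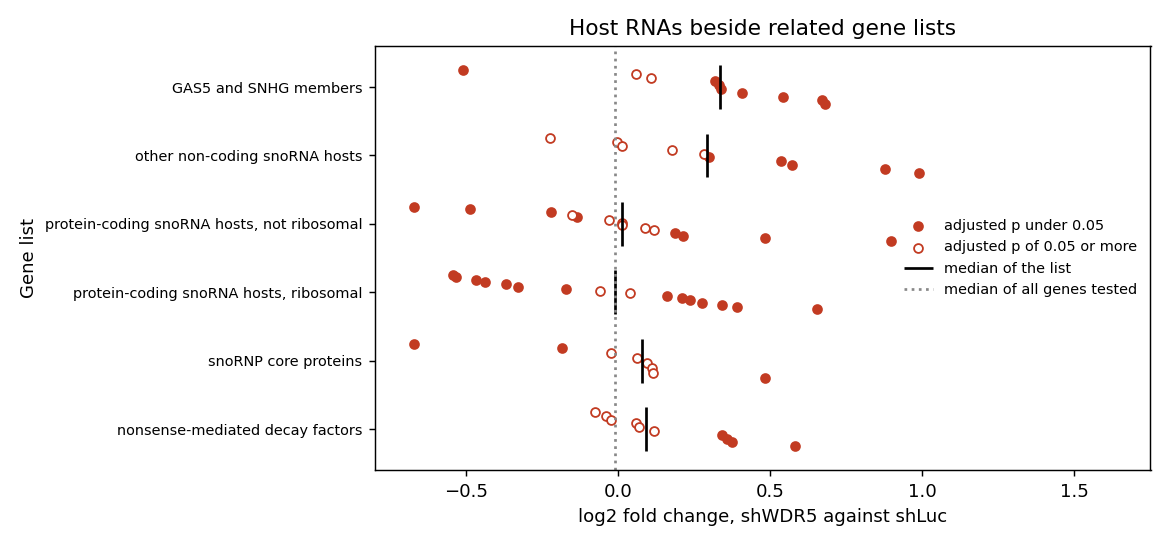
Log2 fold change, shWDR5 against shLuc, of each tested gene in 6 lists (filled at an adjusted p under 0.05), with the median of each list as a black line and that of all genes tested as a dotted line. The non-coding hosts have medians of 0.33 and 0.29, and the protein-coding hosts have medians of 0.01 and −0.01 with genes on both sides.

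The genes whose pattern over the 6 libraries was most like that of GAS5, by Euclidean distance of log2(CPM + 0.5) centred on the mean of each gene, were RRAGA (0.055), TXNL4A (0.063) and HAO1 (0.079). RRAGA was at 94.9, 83.8 and 89.2 CPM in shLuc and at 123, 123 and 115 CPM in shWDR5, a log2 fold change of 0.43 (SE 0.06). TXNL4A had a log2 fold change of 0.36 (SE 0.07). HAO1 held 3 to 21 counts a library, so that its likeness rests on the pseudocount, and its fitted log2 value was 1.23.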

How the data were processed

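RNA sequencing of 6 libraries of MCF10DCIS.com cells (3 shLuc, 3 shWDR5) was analysed from the gene counts. The authors deposited raw read counts per gene on hg19 with exon coordinates and an exon length for each gene; the submitters' processing notes name TopHat2 2.1.0, featureCounts and edgeR 3.2.2, and how featureCounts treated reads shared by genes is not given in the sources used here. Length is that of the merged exons of a gene. A second deposited file holds only the fold changes and p-values of the authors' own comparison and was not used.

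Counts were fitted with edgeR 4.0.16 (R 4.3.3): filterByExpr (minimum count 10, minimum total 15), TMM factors, and the quasi-likelihood F test of shWDR5 against shLuc on all 6 libraries with no covariate, with Benjamini-Hochberg adjustment over 16117 genes and a threshold of 0.05. Intervals are 95%. CPM and RPKM were computed here with the TMM factors. The pipeline was tested on simulated data first. No library was left out. Replicates of a group differed beyond sampling noise (chi-square per degree of freedom 7.11 to 18.2), so each was counted as 1 sample.

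The members and gene lists were chosen with earlier results of these data known. The text names all 10 members, WDR5, all genes of a list with at most 8 tested or else the 4 with the largest absolute change among those that passed, genes that share exon bases with a member, the nearest divergent start within 1 kb, and the 3 genes most like GAS5. DANCR, SNHG14, SNHG18, EIF4A1, RPL21 and the snoRNA rows were named after their values were seen. Marker genes are named in part. Alternatives were other scalings (RLE, upper quartile, total count), filters, DESeq2 1.42.0, the edgeR exact test, a replicate block and leaving out each library.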

Additional observations from a re-analysis of the deposited data

How the results depend on the processing

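The 14 alternatives changed the direction of no host RNA. The members called ranged from 6 to 9, those higher from 5 to 8, and 1 was lower throughout; the calls over all genes ranged from 8120 to 10412. When single libraries were left out, the members past a log2 fold change of 0.6 ranged from 1 to 2 and the protein-coding hosts without ribosomal proteins from 5 (without shWDR5 replicate 3) to 8 called. SNHG5 and SNHG6 lost their calls only in fits that left out a library, with the values given beside them above. SNHG16 gained a call with RLE factors (0.12, adjusted p = 0.0492), upper-quartile factors (0.14, adjusted p = 0.0422), the RPKM filter (0.12, adjusted p = 0.0464) and the replicate block (0.11, adjusted p = 0.0270); the cause was not tested. The replicate block raised the calls over all genes from 9112 to 10412 and changed no other call of a member. Whether the replicate numbers pair the libraries is not settled by these data. Same-numbered libraries correlated at 0.56, 0.06 and 0.20 in their deviations from the group means. Libraries of unlike number correlated between −0.49 and 0.36, and shLuc replicate 2 correlated best with shWDR5 replicate 3 (0.36). Scaling moved the median log2 value of all genes between −0.07 (total count, chosen after seeing the data) and 0.03 (upper quartile), and the share of higher calls from 40.3% to 51.5%, against 47.1% in the fit reported. Several snoRNA rows held under 30 counts a library, which limits their precision; no fit varied the depth.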
